A study of Mus musculus with 8 samples.

Results

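The genes S100a8 and S100a9 encode the subunits of calprotectin and lie side by side on mouse chromosome 3. C/EBPα binding around them was taken as 1 locus: every region of the merged peak lists within 50 kb of either gene body, chr3:90619071-90745721 in build mm10. The members were thus chosen by peak calls and position, and their number per library is a description. Of 259446 regions in the series, 25 lay in this window. CUT&RUN, an assay that uses an antibody to bring a nuclease to the bound protein and sequences the DNA it releases, had been run on bone marrow progenitors sorted as lineage-negative, KIT high to intermediate and FLT3-positive. The cells differed in the -165 kb enhancer of Zeb2, of which 3 variants were compared: WT, DC and DE. The labels do not spell out what DC and DE change in the enhancer, nor whether mice carried 1 or both copies, their age or sex. No treatment is named, and antibody, digestion and library preparation were shared by all groups. Each variant had 2 anti-C/EBPα libraries, replicate 1 from batch 1 and replicate 2 from batch 2 of the labels. The labels do not say that replicates came from separate mice, so p-values measure only the spread between these libraries, which may be technical. The 2 IgG libraries, both from WT cells, were not analysed here.

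S100A8 and S100A9 are small calcium-binding proteins that pair to form calprotectin, an abundant protein of the neutrophil cytosol that is also made by monocytes. Calprotectin binds zinc and manganese, which starves microbes of these metals, and when released it signals through TLR4 and RAGE. C/EBPα is a basic leucine zipper factor that is needed for the formation of granulocyte-monocyte progenitors, and the C/EBP family is a known activator of both calprotectin genes.

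The genes are transcribed towards each other. S100a8 lies on the plus strand at chr3:90669071-90670034, S100a9 on the minus strand at chr3:90692630-90695721, and 22.6 kb separate their 3′ ends. A merged C/EBPα region covered each start site, and all 6 libraries had a peak in both of these regions. The 250 bases before each start site are printed because the summits, the points of highest pileup, fell within them in every library. The sequences are RefSeq's for build GRCm38.p6, read 5′ to 3′ along the gene, at chr3:90668821-90669070 for S100a8 and, on the minus strand, chr3:90695722-90695971 for S100a9. Capitals mark the matches to the letter patterns described next.
S100a8: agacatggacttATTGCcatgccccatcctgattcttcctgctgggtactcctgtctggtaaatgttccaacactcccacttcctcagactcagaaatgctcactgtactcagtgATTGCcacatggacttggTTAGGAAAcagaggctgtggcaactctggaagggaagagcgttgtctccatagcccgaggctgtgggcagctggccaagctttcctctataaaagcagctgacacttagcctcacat
S100a9: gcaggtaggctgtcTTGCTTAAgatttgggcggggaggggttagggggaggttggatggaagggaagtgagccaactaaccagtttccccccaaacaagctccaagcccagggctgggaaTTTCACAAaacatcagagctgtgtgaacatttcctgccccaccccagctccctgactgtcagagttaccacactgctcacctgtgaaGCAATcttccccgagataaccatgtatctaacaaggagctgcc

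The C/EBP pattern TTGCNNAA, which reads TTNNGCAA on the other strand, was searched in the window from 250 bases before to 50 bases after each start. It had no match at S100a8 and 1 match at S100a9, TTGCTTAA, at positions -236 to -229 from the start. Of 32851 RefSeq promoter windows of this length, 10.8% held this pattern. The looser pattern TTNNGNAA, or TTNCNNAA on the other strand, includes every match of the first and was found in 40.7% of the windows. At S100a8 its single match, TTAGGAAA at -117 to -110, lay 2 to 6 bases from the summit in each of the 6 libraries. S100a9 held 2 places, the one named above and TTTCACAA at -130 to -123. This second place lay 0 to 27 bases from the summit in 5 libraries and 88 bases from it in WT replicate 1. The shorter pattern ATTGC, or GCAAT, chosen after the sequences were seen, occurred at 2 places before S100a8 and 1 before S100a9, and in 26.4% of all windows. A match is a description of the letters and does not show where the protein bound.

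The 6 peak lists held between 50221 and 169943 peaks, the most in DC replicate 1. Read totals are not given in the lists, so the depth is unknown. The value used for each region was the summit pileup, the number of sequenced fragments (or extended reads) that overlap the summit, recovered from the deposited fold enrichment and p-value. Pileup rises with sequencing depth as well as with binding. It was therefore scaled so that the median difference between libraries was 0 over the 23480 regions called in all 6, which were 9.05% of the series. The median unscaled pileup over those regions ranged from 24 in DC replicate 2 to 58 in DC replicate 1. Regions beside Flt3 and Kit, the receptors of the sort gate, were called in both WT libraries. Binding data do not measure expression, so the labelled cell type could not be checked further.

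The locus had 12 and 8 called regions for WT, 15 and 9 for DC, and 6 and 11 for DE, replicate 1 first. The share of the 25 regions called was 48%, 32%, 60%, 36%, 24% and 44% in the same order, against 30.9%, 21.4%, 64.6%, 18.7%, 19.8% and 21.5% of all regions. DC replicate 1, the longest list, had the most, and the counts of the variants overlapped. Only 5 of the 25 regions were called in all 6 libraries, and 1 more in 5 of them. Another 14 were called in a single library, which held for 76.7% of all regions in the series. The 18 regions not called in both libraries of any variant had pileups of 5 to 24, and the other 7 had 11 to 283. At the left edge of the window, the last region inside lay 48.2 kb from S100a8 with a pileup of 5 in DC replicate 1, and the first outside lay 51.2 kb away with 6, 10 and 16 in replicate 2 of WT, DC and DE. On the right, the last inside lay 32.6 kb from S100a9 with a pileup of 7 in WT replicate 1, and the first outside lay 116 kb away with 7 in DE replicate 1.

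**Figure D1:**
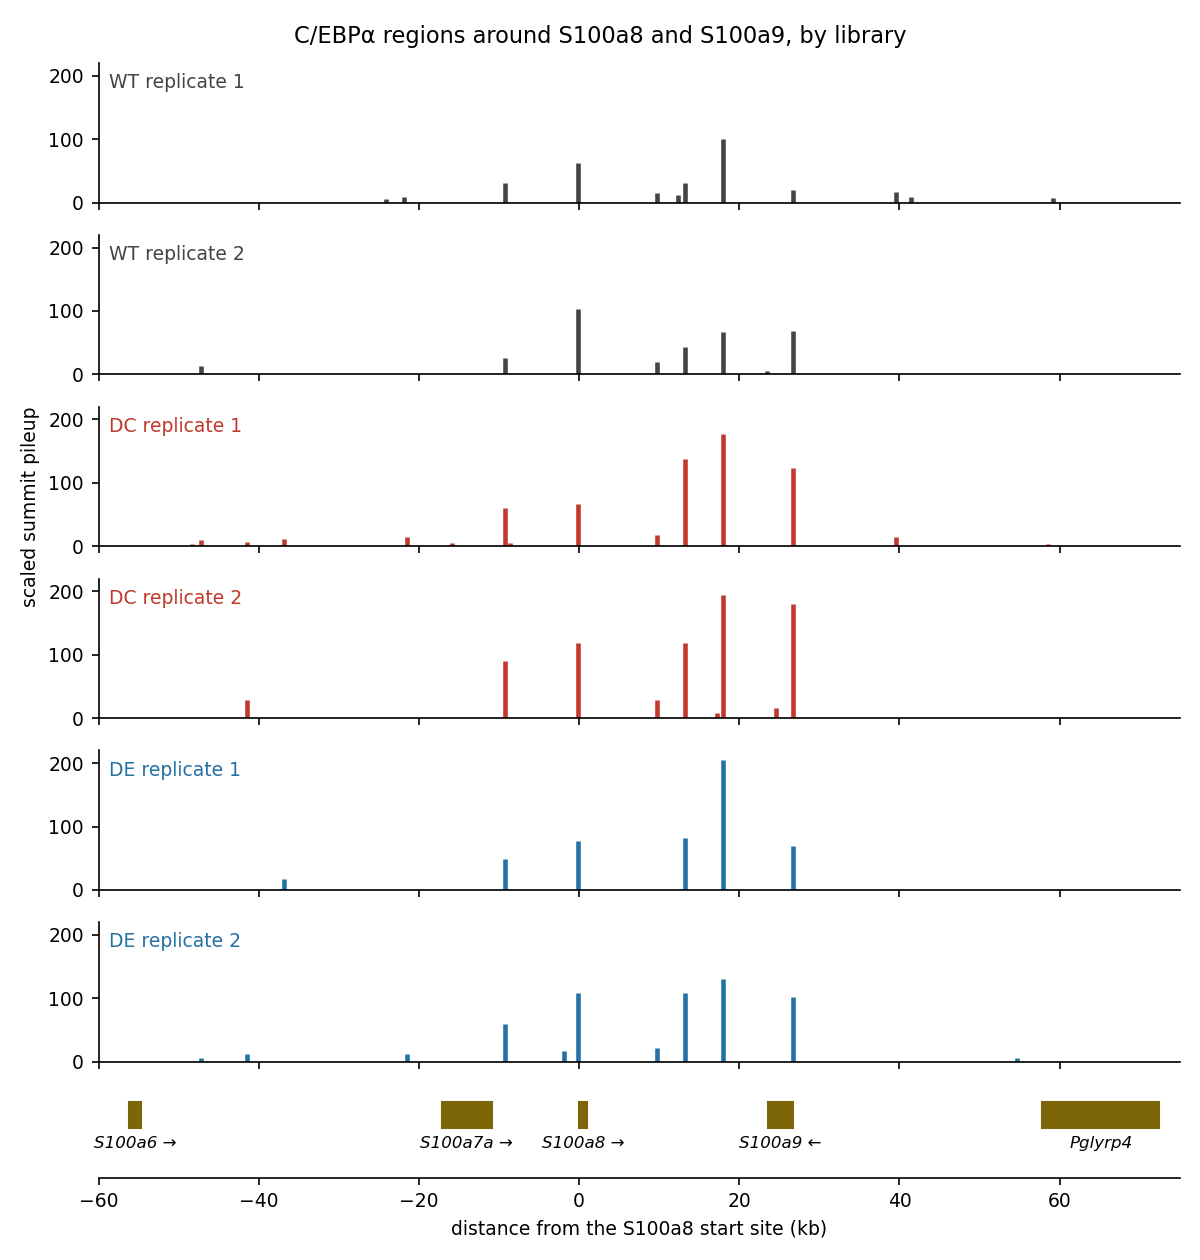
Scaled summit pileup (vertical axis) of every called region against its distance in kb from the S100a8 start site (horizontal axis), 1 row per library, with gene bodies below and arrows for the direction of transcription where the tables give it. The same 5 positions, from -9.23 kb to the S100a9 start, are called in all 6 libraries. No other region is above 27.8, and the lowest value at the 5 positions is 19.3, at the S100a9 start in WT replicate 1.

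The S100a9 start region, chr3:90695459-90696082, had, as a ratio of the highest to the lowest scaled value, the widest range of the 5 regions called in every library. The WT libraries had pileups of 19 and 64, the DC libraries 197 and 116, and the DE libraries 82 and 89, which scaled to 19.3 and 67.8, 123 and 179, and 69.2 and 102. Both DC libraries lay above both DE libraries and both DE libraries above both WT libraries, although DE replicate 1 (69.2) and WT replicate 2 (67.8) were nearly equal. The summit fell 35 bases before the start in WT replicate 1 and 96 to 141 bases before it in the other libraries. The 2 WT libraries differed more from each other here than at any other of the 5 regions. Binding in more cells and more binding per cell cannot be told apart in these libraries.

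Between the genes, the region 13.3 kb after the S100a8 start, chr3:90682032-90682927, lay 9.70 kb beyond the 3′ end of S100a9 and outside both gene bodies. WT replicates had pileups of 31 and 41, DC replicates 220 and 77, and DE replicates 97 and 95. Scaled, the values were 31.5 and 43.4, 137 and 119, and 81.8 and 108. Here the WT libraries were close to each other, and the 3 variants again did not overlap. The share of all regions with all 3 variants apart is not given here, and the shares for each pair of variants are given below.

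The region 18.0 kb after the S100a8 start, chr3:90686663-90687324, was also intergenic, 5.31 kb beyond the end of S100a9. Its 6 summits lay within 7 bases of each other. The pileups were 98 and 63 for WT, 283 and 126 for DC and 242 and 114 for DE, or 99.7 and 66.7, 176 and 195, and 204 and 130 after scaling. This was the highest region of the locus in 5 of the 6 libraries, and in WT replicate 2 the S100a8 start was the highest. Both DC and both DE libraries lay above WT, while DC and DE overlapped.

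The region at -9.23 kb from the S100a8 start, chr3:90659487-90659960, lay 1.36 kb beyond the 3′ end of S100a7a, the mouse psoriasin gene, so it may be counted with either gene. WT gave pileups of 31 and 24, DC of 98 and 58, and DE of 57 and 52. After scaling these were 31.5 and 25.4, 61.0 and 89.7, and 48.1 and 59.4, with DC just above DE and both above WT.

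The S100a8 start region, chr3:90668665-90669273, behaved differently from these 4. WT libraries had pileups of 62 and 97, DC libraries 107 and 77, and DE libraries 92 and 95, and its summits lay 104 to 123 bases before the start. The scaled values were 63.1 and 103 for WT, 66.6 and 119 for DC and 77.6 and 108 for DE, so all 3 variants overlapped. In each variant the batch 2 library was the higher.

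Lower down, the region 9.75 kb after the S100a8 start had pileups of 15 and 19 for WT, 28 and 18 for DC and 19 for DE replicate 2, with no call in DE replicate 1. The region at -41.5 kb from the S100a8 start was called in both DC libraries (12 and 18) and in DE replicate 2 (11), and in neither WT library. Smallest called pileups ran from 4 to 7 between libraries, so a missing call here is a value under a limit that differed by library and is no measured 0.

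**Figure D2:**
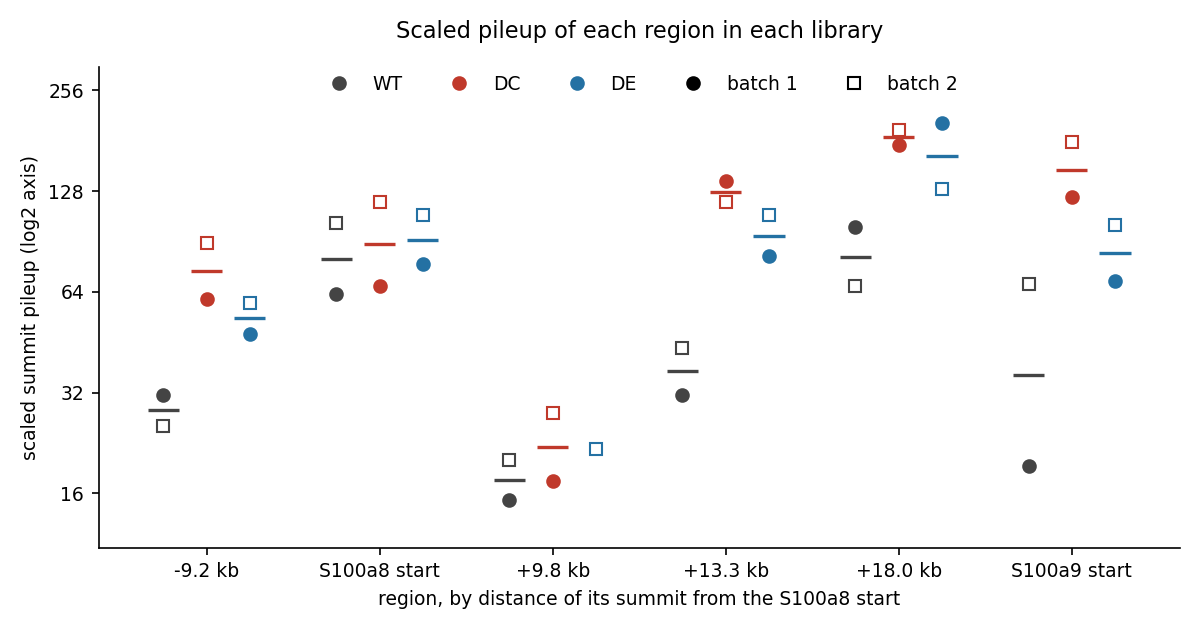
Scaled summit pileup on a log2 axis for the 6 regions called in at least 5 libraries, ordered along the chromosome. Circles are batch 1, open squares batch 2, and bars the geometric mean of each variant. WT lies below DC and DE at 4 regions and overlaps them at the S100a8 start, and the +9.8 kb region has no DE batch 1 value.

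The question for each pair of variants was whether binding at the locus differed by more than the spread between libraries. The locus was picked with earlier results of the DC and DE comparisons with WT in view, so the tests below describe it and lend no independent support. A limma fit over all 23480 regions was used, with p-values adjusted by Benjamini-Hochberg over all of them and a threshold of 0.05. Differences are on the log2 scale of scaled pileup. Because the labels name the batches, each comparison is given without and with batch as a term.

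In DC against WT, the S100a9 start region was 4.10-fold higher (log2 2.03 ± 0.51 SE, n = 2 against 2), the +13.3 kb region 3.45-fold (1.79 ± 0.33), the -9.23 kb region 2.61-fold (1.39 ± 0.37) and the +18.0 kb region 2.27-fold (1.18 ± 0.33). Without a batch term none passed, with limma adjusted p of 0.264, 0.144, 0.298 and 0.324. At an unadjusted p under 0.05 all 4 passed, as did 1876 regions or 7.99% of the series. With the batch term (the replicate block) the 4 rose, with SE of 0.27, 0.26, 0.30 and 0.23 and limma adjusted p of 6.93e-08, 8.8e-07, 0.00165 and 0.000262. In that fit 3.14% of all regions rose and 1.16% fell, and since the locus was picked with these values known, nothing is read from its count of 4 of 5. The 4 regions were higher in both DC libraries than in both WT libraries without overlap, a pattern found at 17.2% of all regions, while 16.8% were lower in the same way. The median over the 5 regions was 1.39, and over all regions -0.02.

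Single libraries moved some of these values. Without WT replicate 1 the S100a9 start difference between DC and WT was 1.13, and without WT replicate 2 it was 2.94, both in the fit without the batch term. With the batch term it passed in each of the 6 runs that left out 1 library, as did the +13.3 kb region. The -9.23 kb region no longer passed without WT replicate 2 (1.01, limma adjusted p 0.189) or DC replicate 2 (1.11, 0.301), and the +18.0 kb region without DC replicate 2 (0.80, 0.358).

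The S100a8 start region differed by 0.15 between DC and WT. Its SE was 0.39 without and 0.25 with the batch term, with limma adjusted p of 0.985 and 0.841. The 95% interval with the batch term ran from -0.35 to 0.64, which includes 0. A difference as high or higher was seen at 35.2% of all regions.

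Each batch gave its own ratio of DC to WT. At the S100a9 start it was 6.35 in batch 1 (95% interval 3.96 to 10.8) and 2.65 in batch 2 (1.93 to 3.65). Ratios this high were reached by 0.0162% and 2.46% of the regions called in both libraries. At +13.3 kb the ratios were 4.34 (2.97 to 6.55) and 2.74 (1.85 to 4.11), at +18.0 kb 1.77 (1.40 to 2.25) and 2.92 (2.14 to 4.02), and at -9.23 kb 1.94 (1.28 to 3.00) and 3.53 (2.16 to 5.94). By the same count, ratios as high were found at 0.173% and 2.09% of regions for +13.3 kb. The shares were 7.12% and 1.74% for +18.0 kb, and 4.97% and 0.716% for -9.23 kb. Every interval of these 4 regions lay above 1 in both batches, while the batch with the larger ratio was batch 1 at 2 of them and batch 2 at the other 2. How often the intervals of other regions lay above 1 is not given here. The S100a8 start gave 1.06 (0.766 to 1.47) and 1.16 (0.848 to 1.58). Scaled by the background level of each library instead, it gave 2.07 (1.498 to 2.87) and 1.95 (1.42 to 2.65). The S100a9 start then gave 12.4 (7.74 to 21.1) and 4.44 (3.25 to 6.13). Whether the S100a8 start intervals include 1 thus depended on the scaling. The intervals are exact binomial and cover counting error only, and reads without molecular identifiers are not independent molecules.

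In DE against WT, which uses the same WT libraries, the +13.3 kb region was 2.55-fold higher (log2 1.35 ± 0.33 SE), the S100a9 start region 2.32-fold (1.21 ± 0.51), the +18.0 kb region 2.00-fold (1.00 ± 0.33) and the -9.23 kb region 1.89-fold (0.92 ± 0.37). None passed without the batch term, where limma adjusted p was 0.638, 0.993, 0.952 and 0.993, and all 4 had an unadjusted p under 0.05, as had 4.87% of all regions. With the batch term the first 3 rose, with limma adjusted p of 0.000629, 0.0048 and 0.00637, and the -9.23 kb region did not pass (0.119). None of the 3 passed with the batch term when scaled by the background level (1.90, 1.76 and 1.55, limma adjusted p 0.384, 0.473 and 0.568) or with the deposited fold in place of the pileup (1.35, 1.25 and 1.28, limma adjusted p 0.0591, 0.122 and 0.0723). In the batch-term fit of median-scaled pileup, 1.12% of all regions rose and 0.264% fell. All 4 were higher in both DE than in both WT libraries, as were 16.1% of all regions, and 16.1% were lower in both. The S100a8 start differed by 0.19 (limma adjusted p 0.848 with the batch term). The median of the 5 was 1.00, against -0.00 over all regions. With the batch term, leaving out 1 library ended calls at each of the 3 regions: the S100a9 start without WT replicate 1 (0.58, limma adjusted p 0.547) or DE replicate 1 (0.90, 0.249), the +18.0 kb region without WT replicate 2 (0.84, 0.234) or DE replicate 1 (0.78, 0.206), and the +13.3 kb region without DE replicate 2 (1.21, 0.0667).

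The DE to WT ratios within batch were 2.59 (1.72 to 4.02) and 2.50 (1.71 to 3.70) at +13.3 kb and 2.05 (1.61 to 2.62) and 1.95 (1.42 to 2.70) at +18.0 kb. Scaled by the background level instead, they were 2.72 and 5.12 at +13.3 kb and 2.14 and 4.0 at +18.0 kb, so how alike the batches were depended on the scaling. At the S100a9 start they were 3.58 (2.15 to 6.24) and 1.5 (1.07 to 2.10). At -9.23 kb they were 1.52 (0.968 to 2.44) and 2.34 (1.41 to 3.96), and the first of these intervals includes 1. Counted as for DC, ratios as high were found at 1.05% and 1.43% of regions for +13.3 kb and 3.59% and 4.56% for +18.0 kb. The shares were 0.166% and 13% for the S100a9 start, and 13.3% and 2.07% for -9.23 kb. The S100a8 start gave 1.23 (0.882 to 1.73) and 1.06 (0.787 to 1.42). On the background scale it gave 1.29 (0.924 to 1.81) and 2.17 (1.61 to 2.90). The batch 1 ratio at -9.23 kb was then 1.597 (1.01 to 2.56), an interval above 1.

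DC and DE were compared directly. The S100a9 start region was 1.77-fold higher in DC (log2 0.82 ± 0.51 SE, or ± 0.27 with the batch term), with limma adjusted p of 1.00 and 0.385. Its ratio was 1.77 (1.36 to 2.32) in batch 1 and 1.76 (1.33 to 2.35) in batch 2. Scaled by the background level instead, it was 3.31 (2.55 to 4.34) and 1.45 (1.09 to 1.93). How alike the batches were thus depended on the scaling. The differences elsewhere were 0.47 at -9.23 kb, 0.44 at +13.3 kb, 0.19 at +18.0 kb and -0.04 at the S100a8 start. None of the 5 regions passed with or without the batch term. At an unadjusted p under 0.05, 0 passed without it, where 2.37% of all regions did, and 1 with it, the S100a9 start, where 8.19% did. With the batch term 2 regions of the series rose (0.00852%) and 5 fell (0.0213%). At 3 of the 5 regions both DC libraries lay above both DE libraries, as at 15.1% of all regions, and the reverse held at 15.2%. The 95% intervals with the batch term were 0.29 to 1.36 at the S100a9 start and -0.08 to 0.96 at +13.3 kb.

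**Figure D3:**
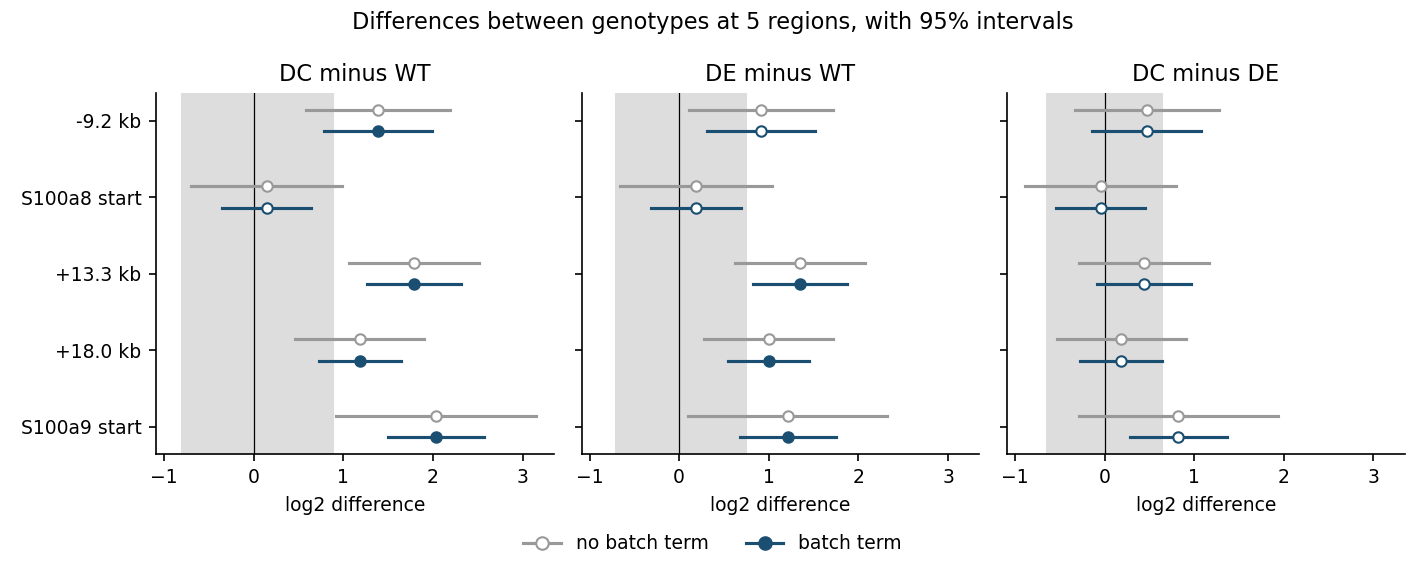
Log2 differences of scaled pileup (horizontal axis) between variants at the 5 regions called in all libraries, with 95% intervals from the fit without a batch term (grey) and with it (blue). Filled points have an adjusted p under 0.05, and the shaded band holds the 5th to 95th percentile of all regions. The S100a8 start lies within the band in each panel, and the other 4 lie beyond it in DC minus WT and DE minus WT.

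A ratio between regions of the same library needs no scaling, and it compares the 2 calprotectin genes directly. The pileup at the S100a9 start divided by that at the S100a8 start was 0.306 and 0.660 for WT, 1.84 and 1.51 for DC and 0.891 and 0.937 for DE. S100a8 thus had the larger summit in both WT libraries and S100a9 in both DC libraries, and in DE the 2 were within counting error, with intervals of 0.654 to 1.21 and 0.694 to 1.26. The variants did not overlap, but 2 libraries against 2 cannot give a two-sided exact permutation p below 0.333. At +13.3 kb the ratio to the S100a8 start was 0.5 and 0.423 for WT, 2.06 and 1.00 for DC and 1.05 and 1.00 for DE. At +18.0 kb it was 1.58 and 0.649 for WT, 2.64 and 1.64 for DC and 2.63 and 1.20 for DE, and WT replicate 1 lay above DE replicate 2. At -9.23 kb it was 0.5 and 0.247, 0.916 and 0.753, and 0.620 and 0.547, with no overlap. How often ratios of other region pairs separate the variants is not given here, so nothing is read from these separations. For each pair of variants, 15.1% to 17.2% of single regions separated in a given direction. The S100a8 start differed little from WT (log2 0.15 in DC and 0.19 in DE). The ratios to it thus largely repeat the differences above. The S100a8 start held 25.7% and 33.6% of the summed pileup of the 5 regions for WT, 11.8% and 17.0% for DC and 16.1% and 21.3% for DE.

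**Figure D4:**
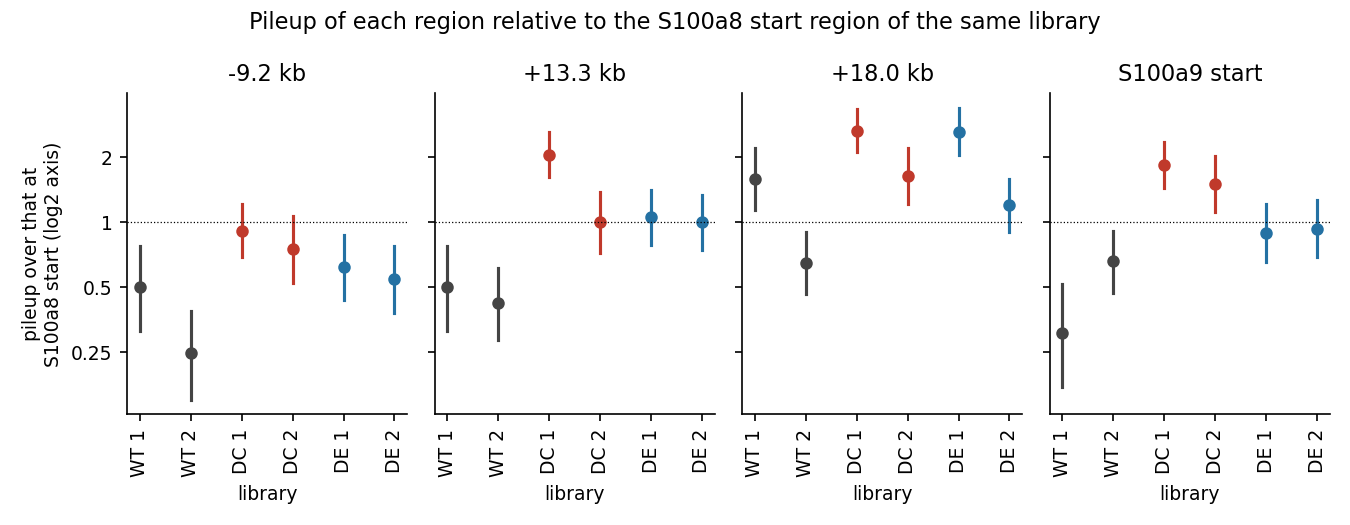
Pileup at 4 regions divided by the pileup at the S100a8 start of the same library (log2 vertical axis), for each library, with 95% intervals of counting error. At the S100a9 start the ratio is under 0.7 in both WT libraries and above 1.5 in both DC libraries, with DE between.

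Summed over the 5 regions, the scaled pileup was 245 and 306 for WT, 564 and 702 for DC and 481 and 508 for DE. DC was 2.30 and 2.29 times WT in batches 1 and 2, DE 1.96 and 1.66 times WT, and DC 1.17 and 1.38 times DE. With the background level as the scale, DC was 4.498 and 3.85 times WT and DE 2.054 and 3.404 times WT. DC was then 2.19 and 1.131 times DE, so the likeness of the batches depended on the scaling. The order WT, DE, DC held in each batch. Scaling by the background level of each library instead raised every region, all 23480 included, by the same 0.86 in DC and 0.55 in DE against WT. On that scale the S100a8 start differed by 1.00 in DC and 0.74 in DE. Taking off the shift must return the 0.15 and 0.19 given above, so this is no second result.

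The other genes of the S100 family on chromosome 3, 13 in number, had 58 regions within 10 kb, of which 8 were called in all libraries. With the batch term 1 rose in DC against WT, the -9.23 kb region that S100a7a shares with S100a8, and none in DE. The other 7 had DC minus WT differences of -0.37 to 0.97, the last at S100a11. Over all regions, 3.14% rose in DC and 1.12% in DE with the batch term. At an unadjusted limma p under 0.05, 2 of the 8 passed in DC and 1 in DE, with or without that term. Over all regions 17% in DC and 12% in DE had such a p with it, and 7.99% and 4.87% without it. At 7 of the 13 genes the same region was called in both WT libraries. S100a4, S100a5 and S100a6, neighbours of each other before S100a7a, had no called region in WT replicate 1 within 10 kb and none called in all libraries. In WT replicate 2 they had 4, 6 and 6 called regions. S100a14, S100a16 and S100a7l2 had no called region in either WT library.

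Factors known to act on the calprotectin genes formed a list of 8, the C/EBP members Cebpa, Cebpb, Cebpd and Cebpe with Spi1 (PU.1), Stat3, Gfi1 and Irf8. All 8 had a region in both WT libraries, and 21 regions were tested. Of these, 1 rose in DC with the batch term (3.14% of all regions did), 0 fell, and in DE 0 passed. At an unadjusted limma p under 0.05, 4 of 21 passed in each comparison with the batch term, and 1 in DC and 0 in DE without it. Over all regions, 17% in DC and 12% in DE had such a p with the batch term, and 7.99% and 4.87% without it. The same 4 shares are the background for the lists that follow. The 1 lay at chr14:54705592-54707275, beside Cebpe, a factor of granulocyte maturation. Its pileups were 84 and 101 for WT, 229 and 134 for DC and 179 and 107 for DE, or 85.5 and 107, 143 and 207, and 151 and 122 scaled. The difference was 0.85 ± 0.23 in DC (limma adjusted p 0.0165 with the batch term and 0.505 without). Both DC libraries lay above both WT libraries there, as at 17.2% of all regions. So did both DE libraries, as at 16.1% of all regions. The median over the 21 regions was 0.17 in DC and 0.05 in DE.

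The 10 genes of neutrophil granule proteins, products made beside calprotectin as neutrophils mature, all had a region in both WT libraries. They include the primary granule enzymes Mpo, Elane, Prtn3 and Ctsg and the secondary granule proteins Ltf, Lcn2, Camp and Ngp. Of 19 regions tested, 0 rose and 0 fell in either comparison with WT, with or without the batch term, and the DC minus WT differences ran from -0.43 to 0.64 with a median of 0.07. The median was -0.01 in DE. At an unadjusted limma p under 0.05, 0 passed in DC, and in DE 0 passed without and 1 with the batch term, against 17% of all regions in DC and 12% in DE with that term.

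Receptors of calprotectin and the proteins that signal below them numbered 15, among them Tlr4 with its partners Ly96 and Cd14, the RAGE gene Ager, the adaptor Myd88, the NF-κB subunits Nfkb1 and Rela, and the cytokines Il1b, Il6 and Tnf. They had 34 tested regions, of which 0 passed limma in either direction, with medians of -0.26 in DC and -0.12 in DE. At an unadjusted p under 0.05, 1 passed in each comparison without the batch term, and 5 in DC and 3 in DE with it, against 17% and 12% of all regions with that term. The 8 regions of Flt3 and Kit had medians of -0.24 and 0.11 and 0 passed limma, also at an unadjusted p under 0.05. Genes that mark other cell types, such as Itga2b of megakaryocytes, had 9 tested regions and 0 passed limma, while 2 in DC and 1 in DE had an unadjusted p under 0.05 with the batch term (17% and 12% of all regions) and 0 without it. At 6 of the 10 marker genes the WT libraries shared a called region. The summed scaled pileup within 10 kb in the WT libraries was 240 and 340 at Xcr1 of type 1 dendritic cells, 138 and 94.3 at Siglech of plasmacytoid dendritic cells, 81.4 and 65.7 at Col1a1 of fibroblasts and 63.1 and 62.5 at Itga2b. It was 8.14 and 6.36 at Cd3e of T cells, and Hba-a1 of erythroid cells and Alb of hepatocytes were called in 1 of 2 WT libraries each. DC minus DE had 0 limma calls in every list. At an unadjusted p under 0.05 without the batch term, 0 to 1 regions per list passed, against 2.37% of all regions. With the batch term 0 to 4 passed, against 8.19% of all regions. The most were 4 of the 34 receptor and signalling regions, and Flt3 and Kit had 2 of 8.

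**Figure D5:**
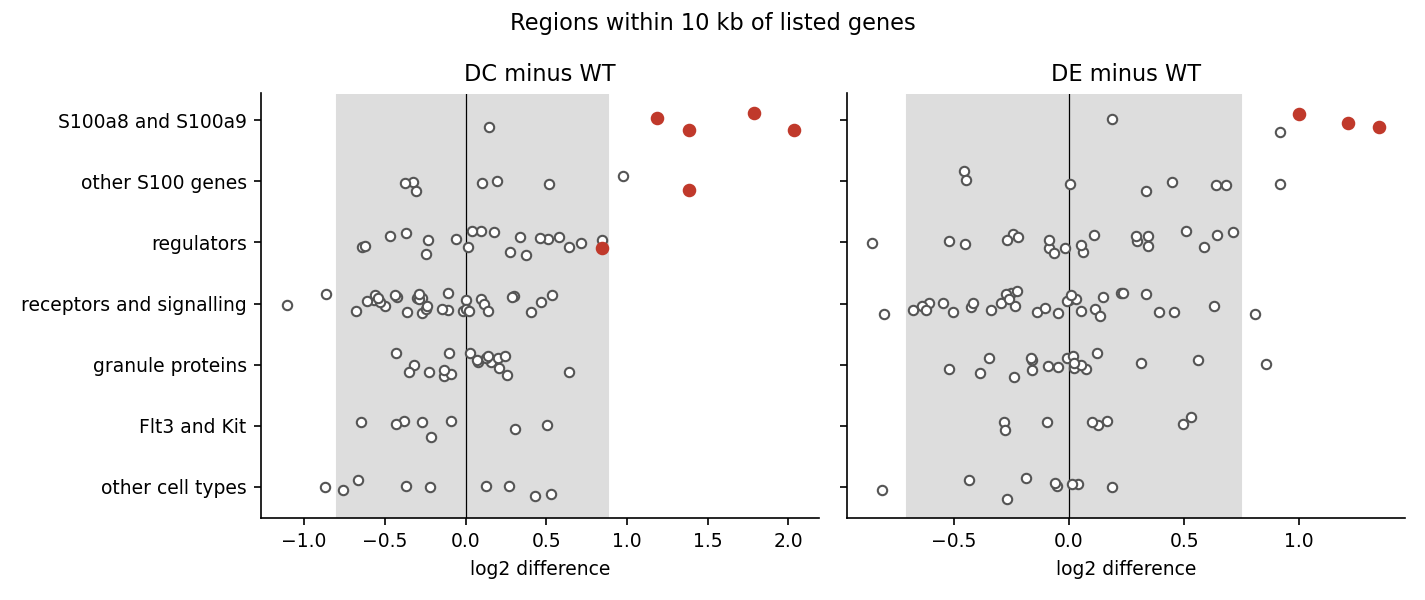
Log2 difference in scaled pileup (horizontal axis) of each region within 10 kb of a listed gene, 1 row per list, with the 5th to 95th percentile of all regions shaded. Red points have an adjusted p under 0.05 with the batch term. They are 4 regions at S100a8 and S100a9, the same -9.23 kb region under the other S100 genes and 1 at Cebpe in DC minus WT, and 3 at S100a9 in DE minus WT.

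Genes whose binding followed a like course over the 6 libraries were ranked among 11048 protein-coding genes, by the Euclidean distance between centred log2 profiles of summed scaled pileup within 10 kb. The 5 nearest to the calprotectin profile were D430019H16Rik at 0.276, Rexo5 at 0.297, Bcl2l10 and its neighbour Gnb5, which share a region, at 0.325, and Mrps35 at 0.327. The median gene lay at 1.45. Mrps35, for example, had a summed scaled pileup of 33.6 and 33.9 for WT, 79.7 and 91.2 for DC and 54.0 and 62.8 for DE. Each of the 5 rested on 1 region, and ranking by Pearson's correlation kept 1 of the 5, Rexo5.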

How the data were processed

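C/EBPα CUT&RUN peak lists of 6 libraries (WT, DC and DE, 2 batches each) were used as the authors deposited them, 1 list per library. The build was mm10, and HOMER, MACS2 2.2.9.1, SAMtools, Bowtie2 and Trimmomatic had been used, per the submitters' processing notes. Whether the IgG libraries served as a control is not given in the sources used here. Each deposited peak carries a fold enrichment (a ratio over local background), a −log10 p-value, a −log10 q-value and a score of about 10 times the −log10 q. The lists were cut by the authors at a q of 0.1, per the file names.

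The summit pileup k was solved from the deposited fold, (k + 1)/(background + 1), and the Poisson p-value. It came out whole within 5% of a step for 99.986% of peaks in WT replicate 2, the lowest share of the 6 lists. Peaks overlapping by 1 bp or more were merged. Log2 pileups of regions called in all 6 libraries were centred by median differences and fitted with limma 3.58.1 (R 4.3.3, trended variance), without a batch term by design and with one as the alternative. The labels pair libraries by batch, and deviations from the variant means correlated within batches (r = 0.548, 0.415 and 0.384 over 23480 regions). The scripts (Python 3.11.15) were tested on simulated data. Gene positions and promoters came from RefSeq.

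Regions called in both libraries of a variant were named, as were up to 4 regions per gene list with the smallest p that passed, and the 5 genes of nearest profile. A few others were named after their values were seen, among them S100a11, S100a4, S100a5, S100a6, S100a14, S100a16, S100a7l2, Itga2b, Xcr1, Siglech, Col1a1, Hba-a1, Alb and Cd3e. The members and lists were chosen with earlier results of these data known. Alternatives changed the scaling, the deposited fold in place of the pileup, the q cut, the overlap, the window, the libraries used, and the motif. IgG libraries were not analysed here.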

Additional observations from a re-analysis of the deposited data

How the results depend on the processing

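With the replicate block, the count of locus regions that rose from 0 in DC against WT became 4, and it was 4 with the block under background scaling, the deposited fold, a −log10 q of at least 2, merging at 100 bp and the 4 libraries alone. In DE against WT it became 3 with the block, 3 under the q, overlap and 4-library settings, and 0 with background scaling or the deposited fold. The fold, q, overlap and 4-library fits with the block were chosen after seeing the data. Leaving out 1 library gave counts of 0 to 4 in DC and 0 to 3 in DE. Without the block, leaving out WT replicate 2 let the S100a9 start pass (2.94, limma adjusted p 0.0321). With the block, DC counts fell to 3 without WT replicate 2 and 2 without DC replicate 2. DE counts were 2 without either WT library or DE replicate 2, and 1 without DE replicate 1. The block changed no call in DC against DE. Over all regions it gave 738 higher and 273 lower in DC against WT (682 and 0 with background scaling, 209 and 64 with the deposited fold), and 262 and 62 in DE (6 and 0, and 42 and 2), against 0 without it.

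The S100a8 start changed sign within its error when 1 library was left out. In DC against WT it ran from -0.27 (without DC replicate 2) to 0.56 and was -0.21 without WT replicate 1. In DE against WT it ran from -0.16 (without WT replicate 1) to 0.54 and was -0.05 without DE replicate 2. In DC against DE it ran from -0.46 to 0.38 (without DC replicate 1) and was 0.20 without DE replicate 2 and, with the block, 0.0792 and 0.10 without DC or DE replicate 1. Background scaling made it 0.26. The +18.0 kb region in DC against DE ran from -0.14 (without DE replicate 2) to 0.51, and with the block it was -0.19 without DC replicate 2 and -0.0307 without DE replicate 2.

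Within 10 kb, called regions numbered 6 in WT replicate 1, 7 in DC replicate 1 and 7 in DE replicate 2. Within 100 kb they numbered 17 in WT replicate 2, 23 and 16 in DC and 10 and 20 in DE. Background scaling gave sums of 149 in WT replicate 1, 669 and 1014 in DC and 305 and 896 in DE. DE replicate 2 thus lay above DC replicate 1, so the DC and DE sums overlapped, unlike in the main scaling. WT replicate 2 is not listed for that scale, and the other counts and sums of this paragraph also leave out libraries. Counting every called region gave 319.5 in WT replicate 1 and 584 in DE replicate 2, and the 100 kb window gave 502 in DE replicate 1. Both promoters matched the looser pattern (2 of 2) and the shorter pattern ATTGC (2), against 1 for TTGCNNAA. The causes of these moves were not tested. The depth of the libraries is unknown, which limits what a missing call shows.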

Other observations

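Within each list, regions were ranked by the deposited −log10 q. The +18.0 kb region stood in the top 2.88% and 11.1% of called regions for WT, 0.406% and 0.628% for DC and 0.747% and 2.27% for DE. The S100a9 start stood in the top 24.2% and 10.8% for WT, 0.983% and 1.06% for DC and 7.96% and 5.31% for DE. The S100a8 start stood between the top 2.12% and 6.66% in all 6 libraries. The lists differ in length, so these ranks describe each library and show no change between variants.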
